A study of Mus musculus with 3 samples.

Results

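Tcf7, Lef1, Bcl11b, Foxp3, Pax5, Ebf1, Tcf4, Spib, Tbx21 and Eomes are 10 transcription factor genes that mark the T, B, natural killer (NK) and plasmacytoid dendritic lineages. They were taken as a named list, out of 31053 genes in the raw count tables, and were followed across all cell classes of neuroblastoma tumors that arose in TH-MYCN mice. TH-MYCN mice carry MYCN under the tyrosine hydroxylase promoter, which is active in the sympathoadrenal lineage, and every mouse here was heterozygous for the transgene. There were 3 tumors, 1 from each of 3 mice, aged 62 days (tumor 1), 79 days (tumor 2) and 63 days (tumor 3), and no control or treated group. Dissociated tumors were sequenced with the 10x Chromium Single Cell 3' v3.1 chemistry, in which each captured transcript is counted once as a unique molecular identifier (UMI). The 5650 barcodes that the authors kept after filtering (1914, 1221 and 2515 in tumors 1 to 3) were the cells described.

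Tcf7 (TCF-1) and Lef1 are HMG-box factors that bind DNA and can act with beta-catenin, and they are used from early T cell development to the naive and memory state. Bcl11b is a zinc finger factor needed for T cell commitment, Foxp3 defines regulatory T cells, and the T-box factors Tbx21 (T-bet) and Eomes control cytotoxic and effector programs in NK and T cells. Ebf1 and Pax5 act in sequence to specify and hold B cell identity, while Tcf4 (E2-2), a basic helix-loop-helix E protein, and the ETS factor Spib (Spi-B) are required for plasmacytoid dendritic cells (pDC). Several are also used outside lymphocytes: Ebf1 in stromal progenitors and pericytes, and Tcf4 in neurons and other tissues.

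In the GRCm38 annotation the T lineage genes lay at chr11:52252371-52283014 (Tcf7, minus strand), chr3:131110471-131224356 (Lef1, plus), chr12:107910403-108003602 (Bcl11b, minus) and chrX:7573644-7595245 (Foxp3, plus). Pax5, Ebf1 and Spib lay at chr4:44524757-44710487 (Pax5, minus), chr11:44617317-45008091 (Ebf1, plus), chr7:44525993-44532071 (Spib, minus). The T-box genes lay at chr11:97098071-97115331 (Tbx21, minus) and chr9:118478212-118486132 (Eomes, plus). Each of the 10 is a single protein-coding entry. RefSeq promoter windows on GRCm38.p6, from 250 bases before to 50 bases after an annotated start, matched 9 of the 10 genes; Tcf4 was not matched. The 4 windows below are shown because they span the range of base composition in the list and hold the EBF motif matches of 2 of its members. They are read 5' to 3' on the gene's strand, capitals mark motif matches, and Tcf7 is chr11:52282965-52283264 (minus), Bcl11b chr12:108003365-108003664 (minus), Ebf1 chr11:44617850-44618149 (plus) and Spib chr7:44532022-44532321 (minus).
Tcf7: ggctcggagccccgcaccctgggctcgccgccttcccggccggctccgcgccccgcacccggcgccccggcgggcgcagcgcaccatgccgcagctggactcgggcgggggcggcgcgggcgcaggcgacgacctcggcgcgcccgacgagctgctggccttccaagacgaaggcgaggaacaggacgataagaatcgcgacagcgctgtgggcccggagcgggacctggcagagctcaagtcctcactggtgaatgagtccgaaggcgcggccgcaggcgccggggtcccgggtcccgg
Bcl11b: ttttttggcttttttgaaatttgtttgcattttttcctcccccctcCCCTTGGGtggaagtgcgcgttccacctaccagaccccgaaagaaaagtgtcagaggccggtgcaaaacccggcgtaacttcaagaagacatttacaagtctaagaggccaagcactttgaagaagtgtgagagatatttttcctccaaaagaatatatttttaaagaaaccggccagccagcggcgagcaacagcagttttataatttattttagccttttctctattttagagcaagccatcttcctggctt
Ebf1: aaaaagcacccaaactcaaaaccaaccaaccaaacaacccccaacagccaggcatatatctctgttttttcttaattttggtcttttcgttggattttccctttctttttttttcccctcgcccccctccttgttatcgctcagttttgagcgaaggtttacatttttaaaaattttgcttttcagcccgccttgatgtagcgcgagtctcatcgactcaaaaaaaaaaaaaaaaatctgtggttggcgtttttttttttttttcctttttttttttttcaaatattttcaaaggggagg
Spib: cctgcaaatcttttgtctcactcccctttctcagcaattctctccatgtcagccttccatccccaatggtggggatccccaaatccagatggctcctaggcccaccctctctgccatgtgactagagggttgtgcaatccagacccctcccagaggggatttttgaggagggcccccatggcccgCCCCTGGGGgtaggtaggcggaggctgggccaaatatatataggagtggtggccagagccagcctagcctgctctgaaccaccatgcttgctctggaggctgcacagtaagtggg

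The GC content of these windows was 76.3% in Tcf7, with 45 CpG dinucleotides, 43% in Bcl11b (9 CpG), 36.7% in Ebf1 (9 CpG) and 58% in Spib (2 CpG), against a median of 52.7% over all promoter windows. The windows of Tcf7 and Ebf1 thus lay on opposite sides of that median. The Tcf7 window holds an open reading frame that begins at atgccgcag, before the annotated start, and has no stop codon up to the window's end. Its GC content, CpG count and lack of motif matches may thus describe coding sequence rather than a promoter. Motifs of the TCF/LEF, EBF, E protein, ETS, T-box and forkhead families were searched on both strands of 27025 windows of 300 bases. No motif of Pax5 or of Bcl11b was searched. The EBF motif CCCNNGGG, which reads the same on both strands and was counted once, was found in 13.4% of all windows and in 2 of the 9 members: Bcl11b, from -204 to -197 relative to the start, and Spib, where a pair of overlapping matches ran from -65 to -57. The E-box CAGGTG, bound by E proteins, was found in 20% of all windows and in 1 member, Tbx21, from -196 to -191. Of the 9 members, 0 held the TCF/LEF motif CTTTGAT (3.72% of all windows), the ETS motif GAGGAAG (13.5%), the T-box motif AGGTGTG (5.86%, which can overlap CAGGTG) or the forkhead motif GTAAACA (3.55%). A match describes letters in the window and is not a bound site.

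Cells were clustered anew, with the 10 genes held out of the clustering, and clusters were named "X-like" from marker genes. T cell-like (225 cells), B cell-like (245), pDC-like (126) and NK cell-like cells (46) were set beside cancer-associated fibroblast (CAF)-like, endothelial-like, macrophage-like, neutrophil-like, plasma cell-like, mesothelial-like, erythroid-like and tumor-like cells. One cluster of 162 cells stayed unnamed. Tumor 1 stood apart from the others: its kept cells had a median of 4282.5 UMIs, against 1594 and 1816 in tumors 2 and 3, and it held 117 of the T cell-like, 204 of the B cell-like, 99 of the pDC-like and 31 of the NK cell-like cells. In all, 4 kept barcodes were shared between tumors, 3 by tumors 1 and 2 and 1 by tumors 2 and 3.

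The names of lymphoid and pDC-like cells held firmly in tumor 1 and less so in the others. When the tumors were clustered without integration, the T cell-like cluster held 115, 1 and 0 cells of tumors 1 to 3. The B cell-like cluster held 205, 1 and 0, and the pDC-like cluster 88, 2 and 1. The lymphoid and pDC-like names of cells of tumors 2 and 3 thus rest on the integration. One cluster of 20, 69 and 131 cells of tumors 1 to 3 stayed unnamed there. Txk, Ccr7 and Il7r were among its leading genes, and it passed 2 T cell markers, short of the 3 needed for a name. In T cell-like cells, 99.1% of those of tumor 1 carried at least 2 of the 10 T cell markers, against 58.7% in tumor 2 and 21.0% in tumor 3. In the same cells the summed level of 9 tumor-cell markers (Th, Dbh and others) was 28.6, 1024 and 1548 counts per 1000000 UMIs (CPM) in tumors 1 to 3, and it was 2041, 1930 and 2026 CPM in tumor-like cells. B cell-like cells gave 52.6, 1358 and 1336 CPM of these markers, and pDC-like cells gave 15.2 in tumor 1 and 916 in tumor 3. Macrophage-like cells, which should lack them, gave 23.1, 524 and 747 CPM. NK cell-like cells gave 34.9 CPM in tumor 1, and 679 and 2140 CPM in the 7 and 8 cells of tumors 2 and 3. Tumor-cell transcripts were thus present in the T cell-like, B cell-like, NK cell-like, pDC-like, macrophage-like and neutrophil-like cells of tumors 2 and 3. Their part in the levels reported for those tumors was not tested. Of the 375 tumor-like cells of tumor 1, 42.7% had at least 2 tumor-cell markers, with a median of 931 UMIs. Without integration, the clusters named tumor held 2, 22, 6, 6 and 10 cells of tumor 1, while 271 and 114 of its cells fell in clusters named erythroid. The larger of these clusters passed 4 of 6 erythroid markers and also 5 tumor-cell markers. The other passed 4 erythroid markers and also 4 T cell markers. The tumor-like name of the cells of tumor 1 thus depended on the integration and on the naming rule, while tumor-cell markers still passed in the larger cluster. The pDC-like cluster also passed 3 markers of conventional dendritic cells.

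**Figure D1:**
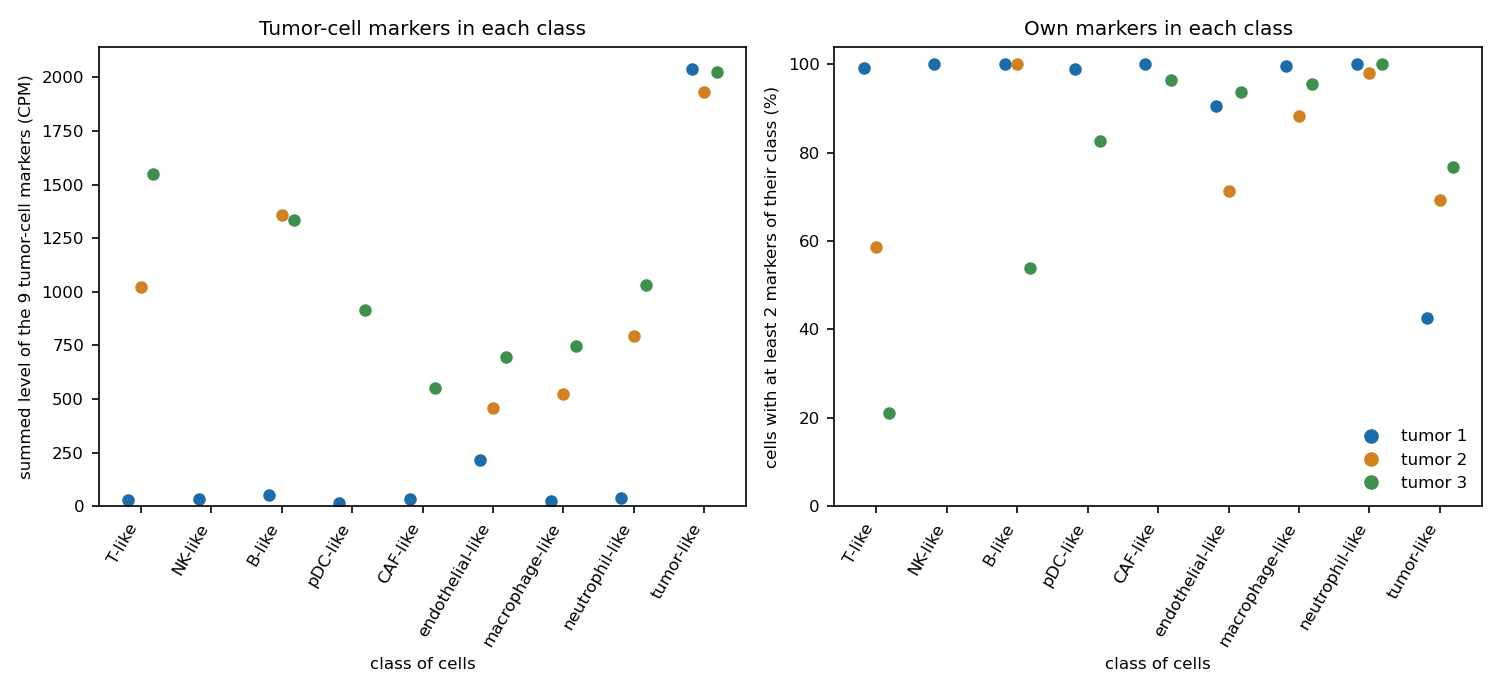
The left panel plots the summed level of the 9 tumor-cell markers (CPM) for 9 classes, where a tumor had at least 10 cells, and the right panel plots the percentage of cells with at least 2 markers of their own class. Immune classes of tumor 1 lie near 0 on the left and near 100% on the right, while T cell-like cells of tumor 3 lie at 1548 CPM and 21.0%.

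To ask in which class each factor was higher, UMIs were summed per class and tumor where there were at least 10 cells. This gave 27 sums over 12 classes, with 23760 to 6023409 UMIs each. edgeR's quasi-likelihood test compared a class with the average of the others on the log scale, with Benjamini-Hochberg adjustment over 9787 genes. All 10 members passed the filter on low counts. The median log2 fold change over the members was above that over all genes in T cell-like (2.59 against 0.34), B cell-like (1.64 against 0.25) and NK cell-like cells (1.59 against -0.01). It was below it in pDC-like (-0.41 against 0.24), CAF-like (-1.03 against 0.44) and endothelial-like cells (-1.35 against 0.35), and these medians depend on the prior count given to classes at 0 UMIs. In total the kept cells held 9021 UMIs of Tcf4, 3121 of Ebf1, 616 of Spib, 534 of Lef1, 438 of Tcf7, 421 of Bcl11b, 350 of Pax5, 68 of Foxp3, 67 of Eomes and 22 of Tbx21.

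**Figure D2:**
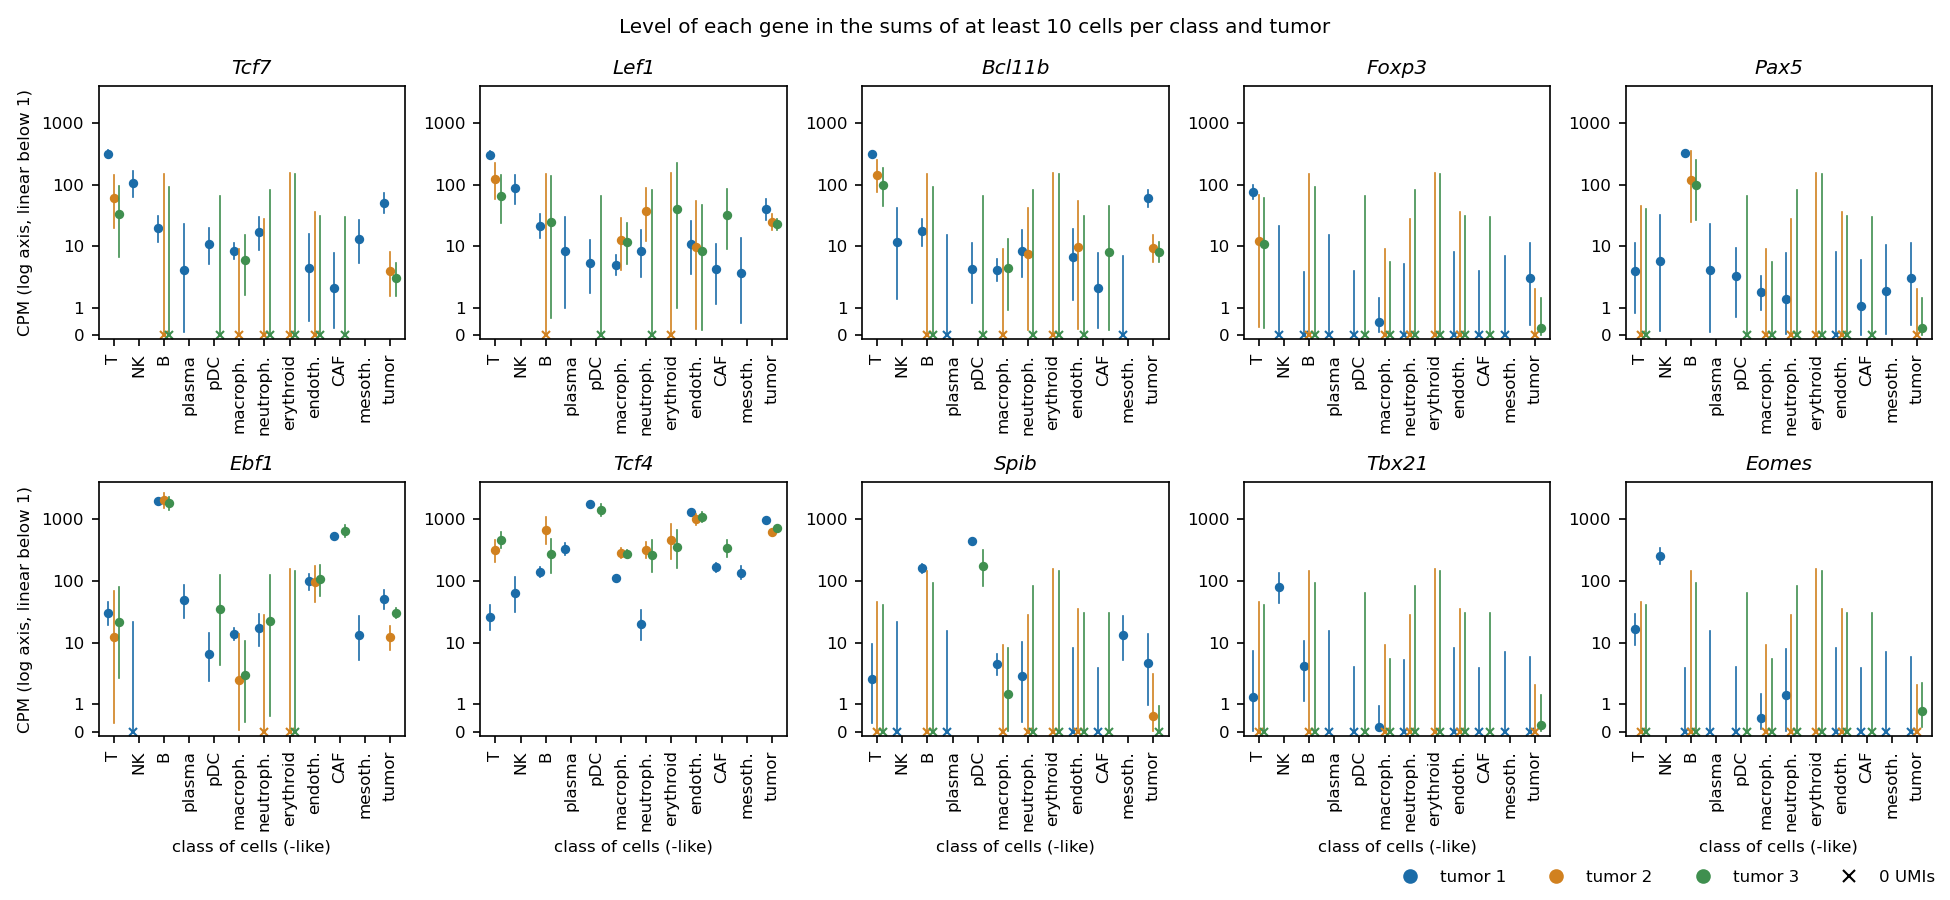
Each panel plots the level of 1 gene (CPM, log axis, linear below 1) in every class and tumor with at least 10 cells, with 95% Poisson intervals that cover counting error only, and crosses for 0 UMIs. By the mean over tumors, Tcf7, Lef1, Bcl11b and Foxp3 are highest in T cell-like cells, Pax5 and Ebf1 in B cell-like cells, Spib in pDC-like cells, Tbx21 and Eomes in NK cell-like cells, and Tcf4 is found in all classes.

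T cell-like cells were higher in Tcf7, Lef1, Bcl11b and Foxp3 than the mean of the other classes, and their measured level of each was the highest of all classes in the 3 tumors. In tumors 2 and 3 this order is not established for Foxp3 (1 UMI each), Tcf7 (5 and 3 UMIs) or Lef1 (10 and 6 UMIs), nor for Bcl11b in tumor 3 (9 UMIs). Where a gene had 0 UMIs, B cell-like sums of tumors 2 and 3 allow up to 120 and 74.2 CPM. Erythroid-like sums allow up to 126 and 120 CPM, and the neutrophil-like sum of tumor 3 up to 67.2 CPM. Eomes was also called higher there, on 13 UMIs that all came from tumor 1. These 5 of 10 members stood against 1.9% of all genes tested that were called higher in T cell-like cells, and 0 members and 0 genes were called lower. With leave-one-out of tumor 1, Bcl11b alone was called. Here and in the classes below, members that no longer passed the filter on low counts without tumor 1 were not tested.

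In T cell-like cells, Tcf7 stood at 319 CPM for tumor 1 (245 UMIs), 61.0 in tumor 2 (5 UMIs) and 32.9 in tumor 3 (3 UMIs). Lef1 was at 306, 122 and 65.9 CPM in the same order, on 235, 10 and 6 UMIs. Bcl11b was at 315, 146 and 98.8 CPM, on 242, 12 and 9 UMIs. All 3 genes were thus highest in tumor 1, where the T cell markers themselves summed to 5968 CPM against 1963 and 988 in tumors 2 and 3. The mean over tumors was 138 CPM ± 158 for Tcf7, 165 ± 126 for Lef1 and 187 ± 114 for Bcl11b (SD, n = 3). edgeR's quasi-likelihood test gave an adjusted p of 0.00122 for Tcf7, 2.6e-05 for Lef1 and 9.13e-06 for Bcl11b. For Lef1, with UMIs in all 12 classes, the log2 fold change was 3.67 (SE 0.45).

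The genes differed in which class came next. In tumor 1, NK cell-like cells came next for Tcf7 (105 CPM, a ratio of 3.05) and for Lef1 (87.2 CPM, a ratio of 3.51), while tumor-like cells came next for Bcl11b (60.7 CPM, a ratio of 5.19). Over tumors, the T cell-like and NK cell-like levels of Tcf7 and of Lef1 overlapped, and the measured T cell-like levels of Bcl11b lay above those of every other class, some of which had 0 UMIs in sums small enough to allow a higher level. Tumor-like cells of tumor 1 stood out for Tcf7 with 51.3 CPM, against 3.91 and 3.07 in tumors 2 and 3. In that tumor, 1 tumor-like cluster of 64 cells with a median of 732 UMIs held Tcf7 in 18.8% of its cells (219.8 CPM, 13 UMIs), Lef1 in 15.6% (203 CPM, 12 UMIs) and Bcl11b in 20.3% (406 CPM, 24 UMIs, of the 39 in tumor-like cells of that tumor). The same cluster held Tcf7 in 1.74% of cells in tumor 2 and 0.676% in tumor 3. Tcf4 was in 9.38% of those 64 cells (152 CPM), so that in tumor 1 these cells went against the tumor-like name of their cluster.

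Per cell, Tcf7 was found in 77 of 117 T cell-like cells of tumor 1 (65.8%, exact 95% interval 56.5 to 74.3), Lef1 in 73 and Bcl11b in 82. In tumors 2 and 3 the shares were 8.70% and 4.84% for Tcf7, 19.6% and 9.68% for Lef1 and 21.7% and 14.5% for Bcl11b, at median depths of 1533.5 and 1468 UMIs against 5808 in tumor 1. Pooled over tumors, and so mostly from tumor 1, they were 37.3%, 39.1% and 44.9%. Macrophage-like cells, which lack T cell programs, held Tcf7 in 4.69% of cells. Thinned to 500 UMIs per cell, the pooled T cell-like shares were 7.56%, 9.33% and 8.44% (13.7%, 0% and 1.61% for Tcf7 in tumors 1 to 3), and the macrophage-like share of Tcf7 was 0.894%. At least 1 of the 3 genes was found in 63.1% of T cell-like cells and at least 2 in 39.1%, against 7.51% and 0.503% of tumor-like cells. Tcf7 and Lef1 shared cells: 60 cells held both, out of 84 with Tcf7 and 88 with Lef1, and 59 of the 60 came from tumor 1.

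In T cell-like cells of tumor 1, Foxp3 stood at 76.8 CPM, on 59 UMIs in 19 cells, and 1 UMI each was found in tumors 2 (12.19 CPM) and 3 (10.98 CPM). T cell-like cells held 61 of its 68 UMIs, and 9 of the 12 classes held 0 UMIs. The mean was 33.3 CPM ± 37.7 (SD, n = 3), and edgeR's adjusted p was 5.9e-04. Foxp3 was found in 17.9% of 67 cells with Cd4 and no Cd8 transcripts (101 CPM), and in 1 of 28 cells with Cd8 and no Cd4. Tcf7 was at 306 and 308 CPM in the Cd4 and Cd8 gates and Lef1 at 270.1 and 281 CPM, with overlapping 95% Poisson intervals. Bcl11b was at 294 CPM (244 to 351) in the Cd4 gate and 211 (135 to 314) in the Cd8 gate, also with overlapping intervals, where median depths were 5502 and 2610.5 UMIs, and 120 T cell-like cells held neither transcript.

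In T cell-like cells of tumor 1, Tcf7 was found in 5 and Lef1 in 6 of the 19 cells with Foxp3, against 77 and 73 of all 117 cells. Foxp3 was thus found both with and without these genes. Of the 21 Foxp3 cells over all tumors, 17 held Bcl11b. In tumor 1, the 19 Foxp3 cells had 3916 CPM summed over 6 genes associated with regulatory T cells (95% Poisson interval 3600 to 4251), and the 81 cells with Tcf7 or Lef1 and no Foxp3 had 534 (476 to 598). The median depths were 6828 and 6058 UMIs. Ikzf2 (Helios) was found in 19 of 19 Foxp3 cells at 1634 CPM, against 110 CPM in the Tcf7 or Lef1 cells. Ctla4, an inhibitory receptor, was at 758 against 176 CPM, and Il2ra (CD25) at 165 against 6.98 CPM. The intervals of each pair did not overlap, and they cover counting error within 1 tumor, which gives no replicate check.

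Inhibitory receptors (Pdcd1, Lag3, Havcr2, Tigit, Ctla4, Cd160) were also higher in Foxp3 cells, at 1220 CPM against 241 in Tcf7 or Lef1 cells. Ctla4, a member of both lists, made up 758 and 176 CPM of these sums. Ccr7, the lymph node homing receptor, was at 103 CPM in Foxp3 cells and 334 in Tcf7 or Lef1 cells. The 10 T cell-like cells with Eomes or Tbx21, which may also be in another split, had 5467 CPM of effector genes, of which Ccl5 made up 5001, against 681 CPM in Tcf7 or Lef1 cells. Another 15 cells held none of Foxp3, Tcf7, Lef1, Eomes or Tbx21 at a median of 2148 UMIs, and had 2919 CPM of the regulatory T cell list and 1808 CPM of the effector list.

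**Figure D3:**
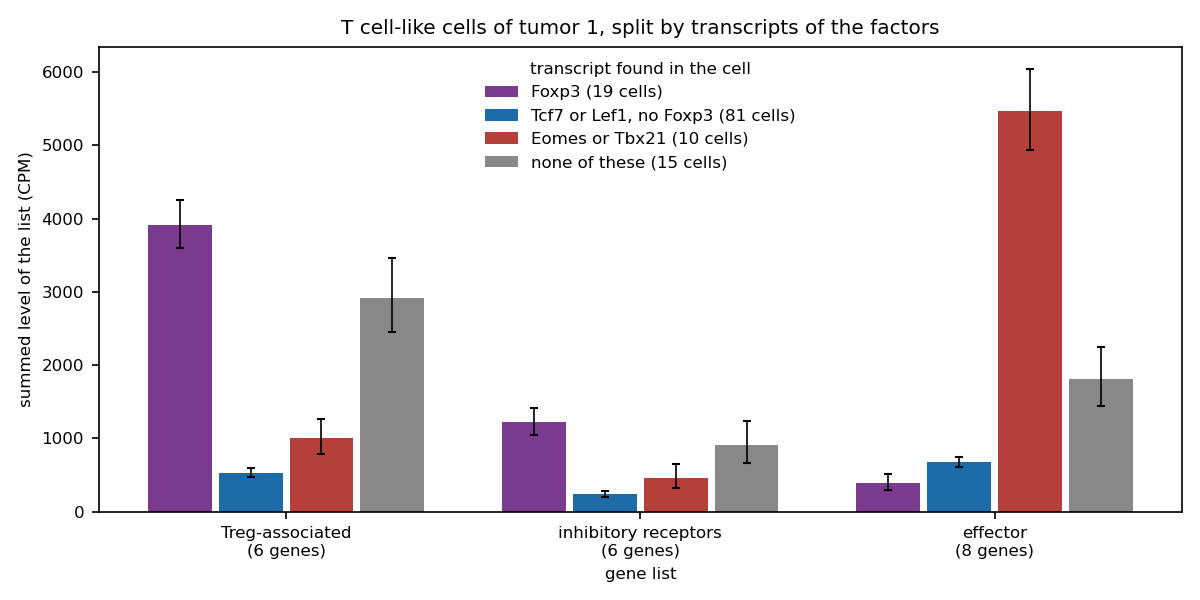
Bars show the summed level (CPM) of 3 gene lists in T cell-like cells of tumor 1, split by the factor transcripts found in the cell, with 95% Poisson intervals. Cells with Foxp3 are highest for the regulatory T cell list at 3916 CPM, and cells with Eomes or Tbx21 are highest for the effector list at 5467 CPM.

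NK cell-like cells were higher in both T-box factors. Eomes was at 256 CPM in tumor 1 (95% Poisson interval 186 to 343, 44 UMIs in 21 of 31 cells) and Tbx21 at 81.4 CPM (44.5 to 137, 14 UMIs in 10 cells). These were 15.1 times the level of T cell-like cells for Eomes and 19.7 times that of B cell-like cells for Tbx21, the next classes in that tumor. edgeR's quasi-likelihood test gave an adjusted p of 4.41e-06 for Eomes and 2.36e-05 for Tbx21, or 2 of 10 members against 1.76% of all genes called higher. None of the 10 was lower, against 0.0102% of genes (1.77% in either direction). NK cell-like cells had 1 sum, since tumors 2 and 3 held 7 and 8 of them, so this sum was assumed to vary like those of the other classes. DESeq2 called 0 members.

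Pooled over tumors, Eomes was found in 47.8% of all 46 NK cell-like cells and Tbx21 in 21.7%. These shares come from tumor 1: of the 7 and 8 cells of tumors 2 and 3, 0 and 1 held Eomes and 0 held Tbx21. In B cell-like cells the share was 0% for Eomes (0 of 245) and 0.816% for the pair. Of the 10 cells with Tbx21, 8 also held Eomes. Thinned to 500 UMIs the shares were 8.70% and 2.17%. Tcf7 was found in 11 and Lef1 in 13 NK cell-like cells, and of these 9 and 10 also held Eomes. Tcf7 (adjusted p = 0.227) and Lef1 (adjusted p = 0.172) were not called higher in NK cell-like cells by edgeR, and Tcf7 was called with the tumor as a replicate block.

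Set directly against each other, T cell-like and NK cell-like cells differed in 0 of the 10 members by edgeR, with 0.317% of all genes called in either direction. At an unadjusted p under 0.05 there were 4 members: Bcl11b and Ebf1 with the higher fitted level in T cell-like cells, and Tbx21 and Eomes with the higher fitted level in NK cell-like cells. Adjusted values were 0.0582 for Tbx21, 0.15 for Eomes and 0.748 for Bcl11b, and DESeq2 called 0. In tumor 1 Bcl11b stood at 315 CPM in T cell-like and 11.6 in NK cell-like cells (2 UMIs), and it was called with the tumor as a block. Eomes in T cell-like cells stood at 16.9 CPM for tumor 1 and at 0 UMIs in tumors 2 and 3, which allows up to 36.6 and 32.9 CPM. Its call in T cell-like cells against all classes (adjusted p = 0.0325) came with a level of 5.64 CPM that was below the mean CPM of the other classes, 23.3, since the test averaged log levels over classes of which 7 held 0 UMIs. This call was lost without tumor 2 and without tumor 3.

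B cell-like cells were higher in Pax5, Ebf1 and Spib than the mean of the other classes, 3 of 10 members against 2.5% of all genes, and 0 members were lower, against 0.0817%. The measured levels of Ebf1 and Pax5 were highest in B cell-like cells in all 3 tumors, on 3 and 4 UMIs of Pax5 in tumors 2 and 3, whereas Spib was found in those of tumor 1 alone. The order of Pax5 in tumors 2 and 3 is not established, since 0 UMIs in erythroid-like sums allow up to 126 and 120 CPM. With leave-one-out of tumor 1, Ebf1 alone was called.

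Ebf1 was at 2023 CPM in B cell-like cells of tumor 1 (1962 UMIs), 2037 in tumor 2 (51 UMIs) and 1831 in tumor 3 (74 UMIs). These levels lay close together, at 1964 ± 115 (SD, n = 3), beside 52.6, 1358 and 1336 CPM of tumor-cell markers in the same sums. It was found in 202 of 204 cells of tumor 1, all 15 of tumor 2 and 23 of 26 of tumor 3. B cell-like levels were 3.74 times those of CAF-like cells in tumor 1 and 2.83 times in tumor 3. In tumor 2 the 8 CAF-like cells gave no sum for the test and held Ebf1 at 510.1 CPM (27 UMIs in 7 cells). edgeR's adjusted p was 1.18e-08.

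Pax5 was at 324 CPM in tumor 1 (314 UMIs), 120 in tumor 2 (3 UMIs) and 98.998 in tumor 3 (4 UMIs), or 181 ± 124 (SD, n = 3). B cell-like cells held 321 of its 350 UMIs, and edgeR's adjusted p was 1.22e-07. Spib was at 160 CPM in tumor 1 (155 UMIs) and at 0 UMIs in tumors 2 and 3, where 0 counts allow up to 120 and 74.2 CPM. Its mean of 53.3 CPM ± 92.3 (SD, n = 3) was called higher (adjusted p = 3.16e-04), which rests on tumor 1.

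Ebf1 was found in 240 of 245 B cell-like cells, Pax5 in 148 and Spib in 93. All cells with Pax5 or Spib also held Ebf1, which at that share of Ebf1 says little of a relation between the genes, and 66 cells held all 3. At least 2 of the 3 were found in 71.4% of B cell-like cells, against 2.38% of pDC-like and 1.19% of CAF-like cells. Thinned to 500 UMIs, Ebf1 was in 67.8% of B cell-like cells, Pax5 in 12.2% and Spib in 6.94%. Tumor-like cells held Ebf1 at 51.3, 12.3 and 30.4 CPM in tumors 1 to 3. In plasma cell-like cells of tumor 1 (21 cells), Ebf1 was at 49.4 CPM, Pax5 at 4.12 CPM on 1 UMI and Spib at 0 UMIs, which allows up to 12.4 CPM.

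pDC-like cells were higher in Tcf4 and Spib, 2 of 10 members against 5.32% of all genes called higher; 0 members were lower, against 0.0613% of genes (5.38% in either direction). Tcf4 was at 1766 CPM in tumor 1 and 1426 in tumor 3 (1596 ± 240, SD, n = 2), and Spib at 440 and 176 CPM (308.0 ± 187). Tumor 2 had 4 pDC-like cells, which gave no sum. edgeR's quasi-likelihood test gave a log2 fold change of 2.48 (SE 0.48) and an adjusted p of 0.00133 for Tcf4, and an adjusted p of 2.54e-06 for Spib. With leave-one-out of tumor 1, Tcf4 was called and Spib was not. DESeq2 likewise called Tcf4 alone.

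Tcf4 was found in 94.4% of pDC-like cells and Spib in 72.2%. Thinned to 500 UMIs the shares were 63.5% and 15.1%. Cells with both made up 71.4% of pDC-like and 15.1% of B cell-like cells. pDC-like cells held 67.7% of all Spib UMIs and B cell-like cells 25.2%. In tumor 1, the Spib level of pDC-like cells was 2.75 times that of B cell-like cells.

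Set directly against pDC-like cells, B cell-like cells were higher in Ebf1 (adjusted p = 0.00252) and Pax5 (0.0151) by edgeR, or 2 of 10 members. Of all genes 0.286% were higher and 1.35% lower in B cell-like cells, 1.63% in either direction. In pDC-like cells, Ebf1 was at 6.52 CPM in tumor 1 and 35.2 in tumor 3, on 6 and 2 UMIs. Tcf4 missed the threshold with a log2 fold change of -2.62 (SE 0.75, adjusted p = 0.0914), and it was called lower in B cell-like cells with the tumor as a replicate block and in cells with at least 2 markers of their class, a limit chosen after the data were seen. Tcf4 in B cell-like cells was at 140, 679 and 272 CPM in tumors 1 to 3, all below both pDC-like sums. Spib did not pass (adjusted p = 0.726).

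**Figure D4:**
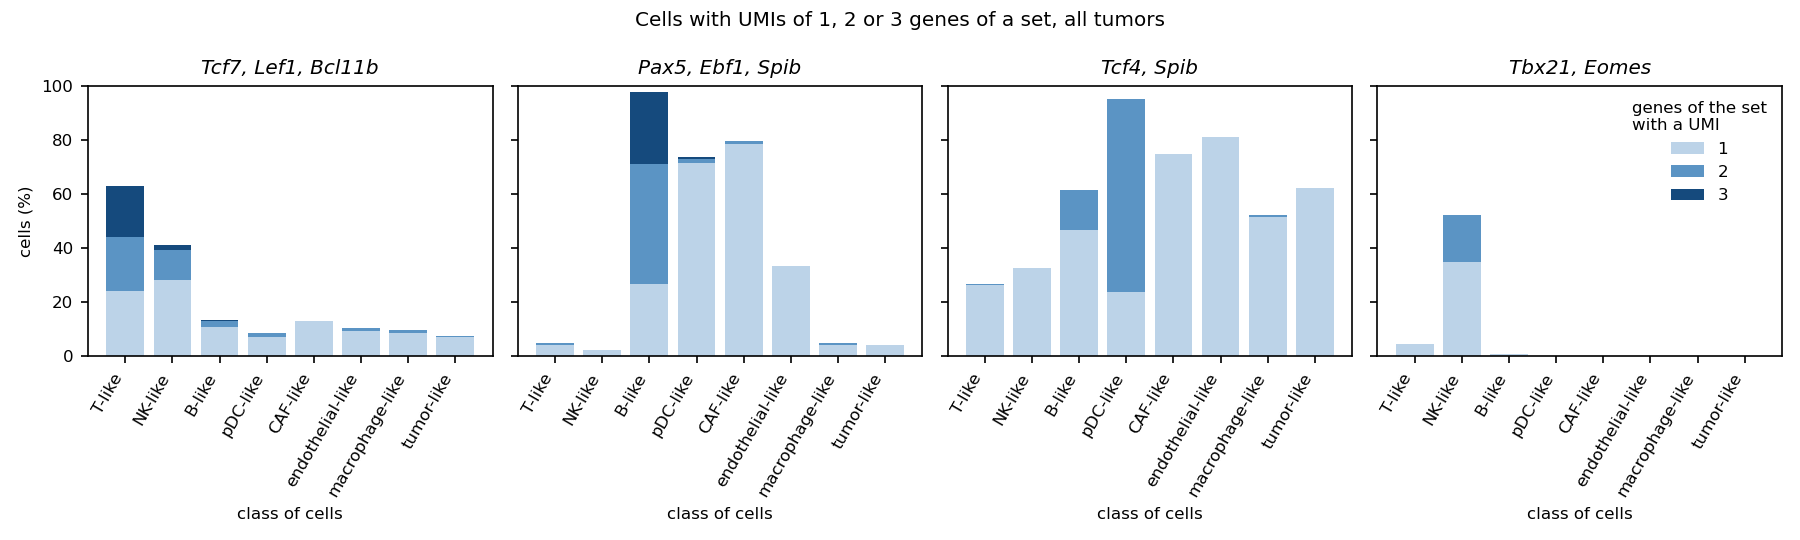
Stacked bars show the percentage of cells of each class, over all tumors, with UMIs of 1, 2 or 3 genes of a lineage set. At least 2 of Pax5, Ebf1 and Spib are found in 71.4% of B cell-like cells, and Tcf4 with Spib in 71.4% of pDC-like cells.

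Ebf1 and Tcf4 were also prominent outside lymphoid and plasmacytoid cells. CAF-like cells were higher in Ebf1 than the mean of the other classes (adjusted p = 1.49e-07 by edgeR), the only member called there, against 14.1% of all genes higher and 0.092% lower. Ebf1 was at 541 CPM in CAF-like cells of tumor 1 and 647 in tumor 3 (594 ± 74.8, SD, n = 2), below every B cell-like sum and above every endothelial-like one. Of all Ebf1 UMIs, 66.9% lay in B cell-like and 19.7% in CAF-like cells. Both CAF-like subsets held it: 38 of 41 cells with Rgs5, a pericyte gene, and no Pdgfra (601 CPM, 95% Poisson interval 532 to 677), and 23 of 24 cells with Pdgfra, a fibroblast gene, and no Rgs5 (520 CPM, 462 to 583). Of 18 CAF-like cells with neither transcript, 5 held Ebf1. Pax5 and Spib were at 1 and 0 UMIs in the CAF-like cells of tumor 1.

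Endothelial-like cells were called higher in Tcf4 and Ebf1, 2 of 10 members against 11.7% of all genes. Tcf4 was at 1340, 1008 and 1095 CPM in tumors 1 to 3 (1148 ± 172, SD, n = 3), with a log2 fold change of 1.83 (SE 0.44, adjusted p = 0.00446 by edgeR). pDC-like levels were 1.32 and 1.30 times these in tumors 1 and 3. Ebf1 was at 98.99, 96.95 and 107.8 CPM (101 ± 5.78), which was below the mean CPM of the other classes, 247, and its call (adjusted p = 0.0354) rests on the averaging of log levels and was lost under several settings. Without tumor 3, neither gene was called.

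Tcf4 was found in all 12 classes, and tumor-like cells held 51.1% of its UMIs. In tumor-like cells it was at 975, 629 and 730 CPM in tumors 1 to 3 (778 ± 178, SD, n = 3), below the pDC-like and endothelial-like levels, and with the B cell-like level of tumor 2 (679 CPM) inside its range. Tumor-like clusters differed: Tcf4 was in 92.2% of 294 cells of a cluster led by Pde10a, Epha5, Adarb2 and Gria2, at 1503, 1031 and 1416 CPM in tumors 1 to 3. It was in 83.7% of 147 cells of a cluster led by Syp and Ncam1 (796 CPM), and in 53.2% to 64.5% of cells in the others (508 to 659 CPM). These cluster values are descriptions with no test.

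In T cell-like, B cell-like, macrophage-like and neutrophil-like cells Tcf4 was lower in tumor 1 than in tumors 2 and 3, and so were the tumor-cell markers; pDC-like cells had the opposite order for Tcf4. T cell-like cells had 26.0, 317 and 472 CPM of Tcf4 in tumors 1 to 3, beside 28.6, 1024 and 1548 CPM of tumor-cell markers. Neutrophil-like cells had 19.8, 322 and 269 CPM beside 38.2, 795 and 1030 CPM, and macrophage-like cells 113, 287 and 279 CPM beside 23.1, 524 and 747 CPM. The part of tumor-cell transcripts in these Tcf4 levels was not tested. In tumor 1, where the markers were low, Tcf4 was still found in 48.0% of macrophage-like and 36.3% of B cell-like cells, against 5.51% of neutrophil-like cells, at median depths of 8786.5, 4367 and 2608 UMIs. Thinned to 500 UMIs, the shares in tumor 1 were 4.92%, 4.90% and 2.97%.

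**Figure D5:**
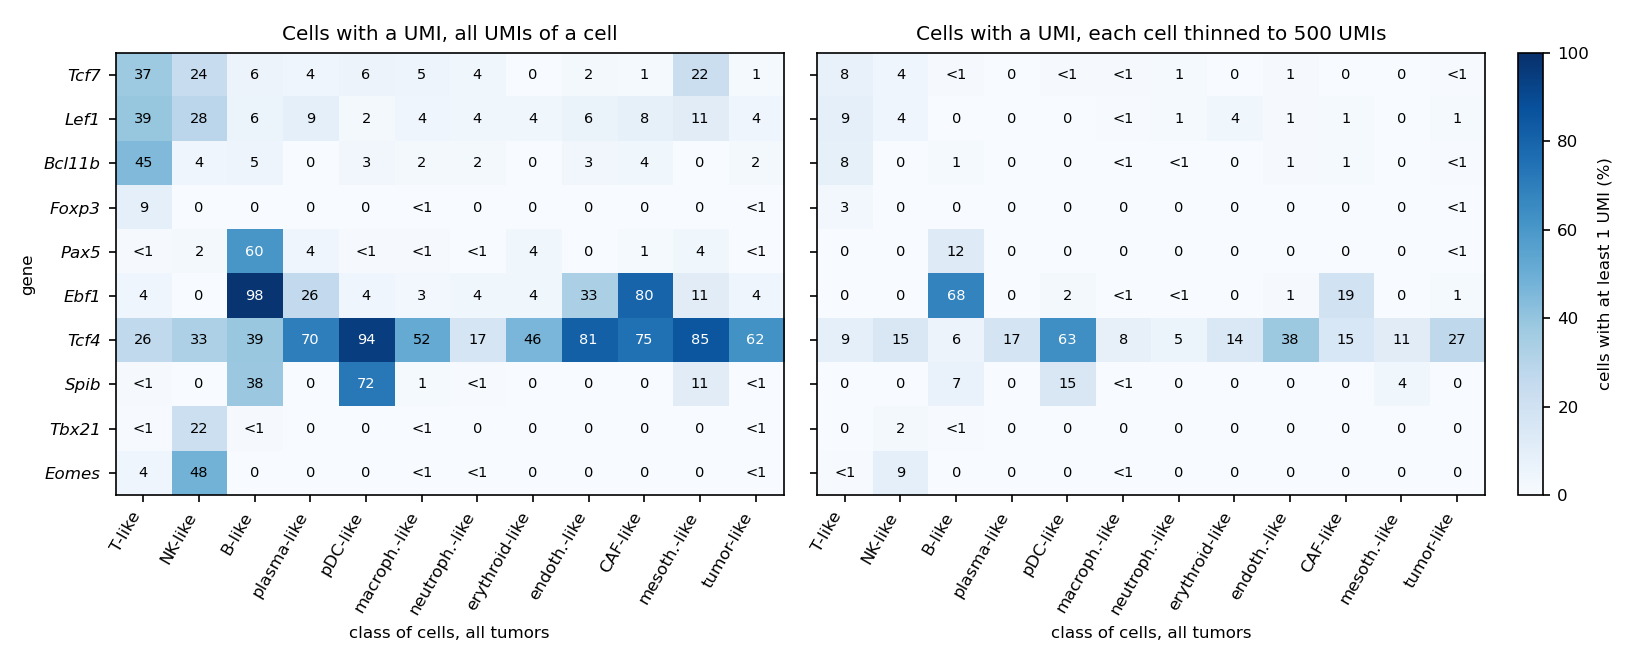
Heat maps show the percentage of cells of each class with at least 1 UMI of each gene over all tumors, with all UMIs (left) and with each cell thinned to 500 UMIs (right). Ebf1 falls from 98.0% to 67.8% of B cell-like cells and Tcf4 from 94.4% to 63.5% of pDC-like cells, while Tcf7 falls from 37.3% to 7.56% of T cell-like cells.

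Other lymphoid transcription factors were counted from a list of 38, of which 36 were tested. In T cell-like cells 5 were called higher, with 0 lower, led by Ikzf2 (233 against 14.9 CPM in the mean of the other classes, adjusted p = 9.13e-06 by edgeR), Pou2af1 (adjusted p = 0.0453, at 12.3 against 17.9 CPM, so that its call rests on log averaging), Rora (51.6 against 19.1 CPM) and Tox (109 against 28.3 CPM). In NK cell-like cells 6 were called higher, led by Irf8 (1064 against 266 CPM), Rora (116 against 13.2), Ikzf2 (98.8 against 27.1) and Runx3 (360.4 against 36.9). Between T cell-like and NK cell-like cells, 1 was called: Irf8, lower in T cell-like cells (adjusted p = 0.00844). Runx3, which supports cytotoxic programs, was thus called in the class that held Eomes and Tbx21.

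In B cell-like cells 8 of the 36 were called higher, led by Pou2af1 (60.4 against 13.5 CPM), a B cell coactivator, Irf4 (17.9 against 18.1, so that its call rests on log averaging), Mef2c (588 against 144) and Ikzf3 (93.5 against 17.4). In pDC-like cells 10 were called higher, led by Irf8 (2250.0 against 158 CPM, adjusted p = 6.72e-08 by edgeR), Runx2 (417 against 14.7, adjusted p = 4.73e-07), Bcl11a (567 against 51.2) and Mef2c (670.3 against 137). Runx2 (adjusted p = 0.00417), Irf8 (0.0445) and Xbp1 (0.0415) were lower in B cell-like than in pDC-like cells by edgeR. CAF-like cells had 3 of the list called higher (Rora, Id3 and Zeb2) and endothelial-like cells 4 (Id3, Zeb1, Mef2c and Prdm1).

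For each factor, up to 3 genes with the most similar levels are given by Pearson correlation of log2 CPM over the 27 sums of 12 classes, as a description; points share tumors and depth. For Tcf7 these were Lck (0.925) and Gimap3 (0.916), and for Bcl11b Tnfsf8 (0.868), Icos and Trac (0.863). Lef1 was most like Bcl11b itself (0.793), followed by Sidt1 and Cd3d (0.748). Foxp3 was most like Tnfsf8 (0.947), Podnl1 and Cd6 (0.924). Pax5 was most like the B cell genes Ighd (0.980) and Fcmr (0.949), and Eomes and Tbx21 most like NK cell genes, with Klrg1 at 0.986 and Gzmb at 0.984 for Eomes and Ncr1 at 0.960 for Tbx21. The values for Eomes and Tbx21 rest largely on 1 point, the only NK cell-like sum, which held 44 and 14 UMIs of them. Trac, Cd3d, Cd6, Ighd, Fcmr, Ncr1 and Smim5 were also markers used to name the classes. Spib was most like Kmo (0.906), Flt3 and Smim5 (0.848). The closest matches were lower for Ebf1 (Fchsd2, 0.750) and Tcf4 (Gna11, 0.734), near that of Lef1.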

How the data were processed

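Single-cell libraries of 3 dissociated tumors were analysed, 1 per mouse. The deposited raw files hold UMI counts per gene and barcode, and the deposited normalized files hold corrected counts on a natural log scale, log(count + 1), for the barcodes that the authors kept after removal of ambient RNA, doublets and cells outside per-tumor limits on coverage, genes and mitochondrial share, per the study's supplement. Cell Ranger 3.1.0, Seurat 3.1.5 and mm10 are named in the submitters' processing notes. Kept barcodes were taken from the normalized files and counts from the raw files, since corrected values held 10, 5 and 7 of the 10 genes in tumors 1 to 3. Doublets were not called again. Kept cells held 12628163, 2740537 and 5215401 UMIs in tumors 1 to 3, and counts of 0 allow up to 3 UMIs. No per-sample column was left out.

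Cells were clustered with Seurat 5.3.0 (CCA integration, 2000 variable genes, 30 dimensions, 20 neighbors, resolution 1) with 71 described genes held out, giving 22 clusters. A cluster took the class with at least 3 markers at 2-fold and in 10% of cells. A plasma cell-named cluster of 173 cells was split by the names at resolution 1.5 into 23 plasma cell-like and 150 tumor-like cells, after clusters were seen. Classes were rebuilt here and may differ from those of the study. CPM is UMIs per 1000000 UMIs of the sum, while tests used TMM factors. Sums of at least 10 cells were tested with edgeR 4.0.16 (filterByExpr, threshold 0.05), in which a class is compared with the unweighted mean of the fitted log levels of the others. Fold changes are printed for Lef1 and Tcf4, which had UMIs in all classes, since others depend on the prior count. DESeq2 1.42.0, the authors' corrected counts, other clusterings, filters and size factors were alternatives. p-values rest on the spread between tumors within classes, pooled over all classes in a fit without a tumor term. The pDC-like and CAF-like classes had 2 sums, and the NK cell-like class had 1 and added no spread of its own. Intervals (Poisson, exact binomial, 95%) cover counting error only.

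Sums of 1 tumor come from 1 animal, which pairs them: their deviations from class means correlated at a median of 0.241 over 85 pairs within a tumor and -0.153 over 170 pairs between tumors. On simulated data over 9787 genes, where 200 genes were changed, the T cell-like comparison found 79.1% of those with a log2 change of 2 and 100% of those at 4, and 7.3% of its calls fell on unchanged genes. The B cell-like comparison recovered 53.3% and 100%, the pDC-like one 64.8% and 97.9% with 13.3% of calls on unchanged genes, and the NK cell-like one 37.2% and 94.8%. Simulated sums were drawn independently from a common profile, with no tumor effect and no other difference between classes. Shares found are over changed genes that passed the filter (86 and 97 in the T cell-like comparison), so they may not hold for the real sums. The 10 genes and all lists were chosen with earlier results of these data known. Named genes were the 10 members, up to 4 called genes of the list of other lymphoid factors by fold change, the 3 genes most like each member, and the lists used within T cell-like cells; other genes were named after their values were seen. Some genes that this rule names are not reported here. R 4.3.3, limma 3.58.1, Python 3.11.15 and matplotlib 3.10.9 were used.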

Additional observations from a re-analysis of the deposited data

Results flagged for a closer look

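The 7972 barcodes that the authors removed were used in no comparison. Over them, all 10 genes were above the 0.0777 CPM that 3 counts of 38605680 UMIs allow. Lef1 was at 29.14 CPM, against 25.9 in kept cells, and Tcf4 at 727.6 against 438 CPM. The other 8 were lower than in kept cells when tumors were pooled: Tcf7 at 7.434 CPM, Bcl11b at 17.67, Foxp3 at 0.5699, Pax5 at 0.8289, Ebf1 at 57.66, Spib at 1.269, Tbx21 at 0.2849 and Eomes at 0.803 CPM, against 21.3, 20.5, 3.30, 17.0, 152, 29.9, 1.07 and 3.25 CPM in the same order. Tumor 1 gave most of the kept UMIs and few of the removed ones, and within tumors the direction turned for several genes. In tumor 1, removed barcodes were higher in Tcf7 (47.5 against 32.2 CPM), Bcl11b (87.6 against 27.3), Tbx21 (1.92 against 1.66) and Eomes (6.40 against 4.99), and lower in Tcf4 (257 against 322). In tumor 3 they were higher in Bcl11b (9.92 against 8.63) and Ebf1 (59.5 against 56.2), in tumor 2 Lef1 was lower (19.2 against 24.1), and Tbx21 was higher there on 2 UMIs. Foxp3, Pax5 and Spib were lower in removed barcodes of each tumor. Tcf4 was found in 6036 of the removed barcodes. Of those barcodes, 78.6%, 93.3% and 92.3% in tumors 1 to 3 had at least 20% of UMIs from mitochondrial genes. There were no control samples to set them against.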

How the results depend on the processing

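Ebf1 stayed called in CAF-like cells under every alternative, and none of the 17 called fold changes of members changed direction. Of the 110 counts of called members under alternatives, 85 stayed within 1.5 times. In T cell-like cells (5 called), DESeq2 called 2 and the authors' corrected counts 3. In pDC-like cells (2), DESeq2 called 1. In NK cell-like cells (2), DESeq2 called 0, sums of at least 5 cells 1, and a marker gate without clustering or no filter on low counts 4. In endothelial-like cells (2), resolution 0.6, no integration, the marker gate, DESeq2 size factors, DESeq2, sums of at least 5 cells and corrected counts each called 1, Tcf4. Between B cell-like and pDC-like cells (2), corrected counts called 1. Between T cell-like and NK cell-like cells (0), resolution 0.6 called 1 and no filter 2. Leaving out 1 tumor gave 1 to 4 members in T cell-like, 1 to 3 in B cell-like, 1 to 2 in pDC-like and 0 to 2 in endothelial-like cells, and 0 to 2 between B cell-like and pDC-like cells, where 0 came without tumor 3. NK cell-like cells gave no value without tumor 1. Of the 17 called fold changes, 7 stayed called without tumor 1 and 1 kept its direction but was not called. The rest had no value, since the gene was not tested or the class had no sum. With the tumor as a replicate block, NK cell-like cells had 3 (Tcf7 added), B cell-like against pDC-like cells 3 (Tcf4 added) and T cell-like against NK cell-like cells 1 (Bcl11b). The block changed no other member count, and raised calls over all genes from 186 to 417 in T cell-like, 253 to 461 in B cell-like, 527 to 793 in pDC-like cells, 160 to 430 between B cell-like and pDC-like cells and 31 to 68 between T cell-like and NK cell-like cells. Over all genes, DESeq2 gave 24, 79, 186, 6, 612 and 731 calls in T cell-like, B cell-like, pDC-like, NK cell-like, CAF-like and endothelial-like cells, where edgeR gave 186, 253, 527, 173, 1393 and 1161. No filter gave 629, 525, 1042, 458 and 2390 in the first 5 of these, no integration, where these classes came almost wholly from tumor 1 and gave 1 sum each, 353 and 418 in T cell-like and B cell-like cells, and corrected counts 108, 163, 771 and 651 in T cell-like, B cell-like, CAF-like and endothelial-like cells. Between B cell-like and pDC-like cells (160), DESeq2 size factors gave 82, DESeq2 64, no filter 362 and corrected counts 55. Between T cell-like and NK cell-like cells (31), no integration gave 11, the marker gate 15, DESeq2 size factors 20, DESeq2 1, no filter 111 and corrected counts 3. Without 1 tumor, these counts over all genes fell to as few as 82 in T cell-like, 38 in B cell-like, 182 in pDC-like and 452 in CAF-like cells (each without tumor 1), 102 in NK cell-like cells (without tumor 3), 11 between B cell-like and pDC-like cells (without tumor 3) and 0 between T cell-like and NK cell-like cells (without tumor 2). The cause of these shifts was not tested. In cells with at least 2 markers of their class, a limit chosen after the data were seen (156 of 225 T cell-like cells), the calls were the same plus Tcf4 between B cell-like and pDC-like cells. Depth limits tumors 2 and 3 most: T cell-like sums there allow 36.6 and 32.9 CPM at 0 counts, against 3.90 in tumor 1.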

Other observations

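In the unnamed cluster of 162 cells, led by Ccl4, Ccl3 and Gata2, Tcf4 was found in 32.7% of cells (297 CPM), Ebf1 in 4.94% (61.2 CPM) and Tcf7 in 4.32% (21.4 CPM). By tumor, Tcf4 was at 152 CPM in 110 cells of tumor 1, 373 CPM in 15 cells of tumor 2 and 730.5 CPM in 37 cells of tumor 3. In macrophage-like clusters, Tcf4 was found in 34.5% to 70.1% of cells, at 93.0 to 340 CPM.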
